A study of Mus musculus with 12 samples.

Results

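Imprinted fetal growth genes were followed in sinusoidal endothelial cell (SEC) and hepatic stellate cell (HSC) fractions of scarred and healthy mouse liver. The 10 genes were taken by symbol from the deposited table, H19, Meg3, Rian, Dlk1, Peg3, Plagl1, Mest, Cdkn1c, Grb10 and Ndn, out of 23472 gene entries. All 10 were among the 14489 genes with enough reads to be tested. H19 and Dlk1 met the filter only through libraries of CCl4-treated mice (1 CPM, that is counts scaled to library size, was needed in at least 3 libraries, and 1 oil library reached it for H19 and 0 for Dlk1), so a higher level with CCl4 was built into their passing.

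The study sequenced bulk RNA from 12 libraries, 3 in each of 4 groups, all from male C57BL/6 mice aged 12 to 14 weeks. F-SEC and F-HSC came from mice injected with carbon tetrachloride (CCl4), a liver toxin that causes fibrosis when given repeatedly, at 0.6 µl per g of body weight (15% in olive oil), 2 times a week for 6 weeks. Q-SEC and Q-HSC came from mice given olive oil. After collagenase perfusion both fractions were taken from a density gradient; the SEC fraction was then purified on magnetic beads, and for the HSC fraction no further purification is described. The labels do not say that the libraries of a group were separate animals, and the spread behind the p-values may then be partly or wholly technical.

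Imprinted genes are transcribed mainly from 1 parental copy, a choice set by DNA methylation in the germ line and kept in the embryo by zinc finger proteins such as ZFP57. Many act on growth before birth and are largely silenced in liver and other organs soon afterwards. In the mouse, H19, Meg3, Rian, Cdkn1c and (outside neurons) Grb10 are expressed from the maternal copy, and Dlk1, Peg3, Plagl1, Mest and Ndn from the paternal copy. The deposited counts do not separate the copies, so nothing here concerns imprinting itself.

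The genes lie on 5 chromosomes in the coordinates of the deposited table (mm10). H19 (chromosome 7, 142575532 to 142578146, minus strand), Meg3 (chromosome 12, 109540996 to 109571729, plus strand) and Rian (chromosome 12, 109603945 to 109661711, plus strand) make long noncoding RNAs. Dlk1, the neighbour of Meg3 and Rian on chromosome 12 (109452823 to 109463336), is protein coding like the remaining genes. Chromosome 7 also holds Cdkn1c (143458339 to 143461050), Peg3 (6705960 to 6730419) and Ndn (62348277 to 62349927). Plagl1 is on chromosome 10 (13090788 to 13131695), Mest on chromosome 6 (30733506 to 30748466) and Grb10 on chromosome 11 (11930499 to 12037420).

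Several of these transcripts carry microRNAs, and the RefSeq tables (GRCm38.p6) placed 13 mature microRNAs, with 13 different seeds, inside the spans of H19, Meg3, Rian and Mest on the same strand. A pair from each of these hosts is shown from 5′ to 3′ with the seed, bases 2 to 8, in capitals, because the seed decides which messages a microRNA pairs with. They come from H19 (miR-675), Meg3 (miR-770), Rian (miR-370) and Mest (miR-335).
mmu-miR-675-5p, chr7:142577112-142577133, minus strand: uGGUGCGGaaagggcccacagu
mmu-miR-675-3p, chr7:142577078-142577099, minus strand: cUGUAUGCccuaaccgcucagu
mmu-miR-770-5p, chr12:109563710-109563731, plus strand: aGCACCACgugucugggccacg
mmu-miR-770-3p, chr12:109563744-109563765, plus strand: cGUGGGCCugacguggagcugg
mmu-miR-370-5p, chr12:109618270-109618289, plus strand: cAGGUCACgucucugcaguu
mmu-miR-370-3p, chr12:109618305-109618326, plus strand: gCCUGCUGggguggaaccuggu
mmu-miR-335-5p, chr6:30741314-30741336, plus strand: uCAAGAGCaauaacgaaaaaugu
mmu-miR-335-3p, chr6:30741354-30741375, plus strand: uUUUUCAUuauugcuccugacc
These libraries did not measure mature microRNAs: the hairpin entries Mir675, Mir770, Mir370 and Mir335 held 6, 2, 2 and 1 counts summed over the 12 libraries. Changes of the hosts below are therefore changes of the long transcripts.

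RefSeq promoter windows (250 bases before to 50 after a start, GRCm38.p6) were matched for 8 of the 10 genes, 12 windows in all, and were searched on both strands for 3 motifs. The ZFP57 motif TGCCGC was found at Meg3, Plagl1, Mest and Grb10, in 5 of the 12 windows, and in 11.6% of all 32851 windows. The motif GGGGCCCC, bound by the protein that Plagl1 encodes (ZAC1), was found at Peg3 and in 1.08% of all windows. The YY1 motif GCCATNTT was in none of the 12 windows and in 6.05% of all. The stretches below, printed on the strand of the gene and ending before the start, show the motif in capitals for the 4 genes whose motif lies before the start (that of Grb10 lies after it, among transcribed bases, and is not shown), and GCGGCA is TGCCGC read on the opposite strand.
Meg3, chr12:109540766-109540851, plus strand: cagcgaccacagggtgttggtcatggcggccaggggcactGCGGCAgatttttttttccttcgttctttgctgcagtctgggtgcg
Plagl1, chr10:13090702-13090787, plus strand: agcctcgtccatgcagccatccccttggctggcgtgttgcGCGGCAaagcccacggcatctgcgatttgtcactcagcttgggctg
Mest, chr6:30737943-30738028, plus strand: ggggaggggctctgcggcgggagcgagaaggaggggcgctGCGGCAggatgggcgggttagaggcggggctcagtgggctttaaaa
Peg3, chr7:6730573-6730660, minus strand: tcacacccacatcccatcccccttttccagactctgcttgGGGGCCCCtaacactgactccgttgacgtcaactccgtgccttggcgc
The windows of these genes held more CpG at the median, with 12 CpG and 57.5% G or C in the 12 windows, against 7 CpG and 52.7% in all windows. A match is a description of the letters only. Of the 4 genes with the ZFP57 motif, Meg3 and Plagl1 were called higher with CCl4 in both fractions, Mest in SEC and Grb10 in HSC. Peg3 was called in neither. With none of the 3 motifs in their windows, Rian and Dlk1 were called higher in both (for Dlk1 a rise was built into its passing of the filter) and Ndn in SEC. H19 and Cdkn1c had no window. Over all tested genes 11.8% were called higher in SEC and 14.7% in HSC, and a link of motifs to changes was not tested.

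Gene counts summed to 8714228 to 13068564 per library, so 3 counts, used as the floor, stood for 0.228 to 0.335 CPM (counts per 1000000 of the TMM-adjusted library size). The fractions were not pure by their marker lists, none of whose measured genes was at 0 in all libraries. Sinusoidal endothelial markers (9 genes, such as Stab2) summed to 7890 to 10900 CPM in F-SEC, 23900 to 28100 in Q-SEC, 2050 to 4400 in F-HSC and 8560 to 11100 in Q-HSC. Stellate cell markers (10 genes, such as Des) summed to 2730 to 4870 CPM in F-SEC, 178 to 2850 in Q-SEC, 1460 to 2070 in F-HSC and 659 to 3540 in Q-HSC, and the highest oil libraries were Q-SEC.1 and Q-HSC.1. Myofibroblast markers (7 genes, such as Col1a1) were called higher with CCl4 for 7 of 7 in both fractions and summed to 9220 to 24700 CPM in F-SEC, 45.3 to 375 in Q-SEC, 3990 to 10400 in F-HSC and 109 to 616 in Q-HSC. Portal fibroblast markers were called higher with CCl4 for 6 of 7 tested in SEC and 5 of 7 in HSC, where 1 was called lower. Mesothelial markers were called higher for 5 of 6 in SEC and 4 of 6 in HSC, and proliferation markers for 7 of 9 and 0 of 9. Macrophage markers were called higher for 3 of 7 in SEC, with sums of 1020 to 2490 CPM in F-SEC and 200 to 706 in Q-SEC, and lower for 2 of 7 in HSC, with 3850 to 8660 CPM in F-HSC and 5850 to 17400 in Q-HSC. Of the 9 endothelial markers, 7 were called lower with CCl4 in both fractions. In bulk RNA a change in the number of cells of a type and a change in RNA per cell cannot be told apart, and the part of these markers in the changes below was not tested.

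**Figure D1:**
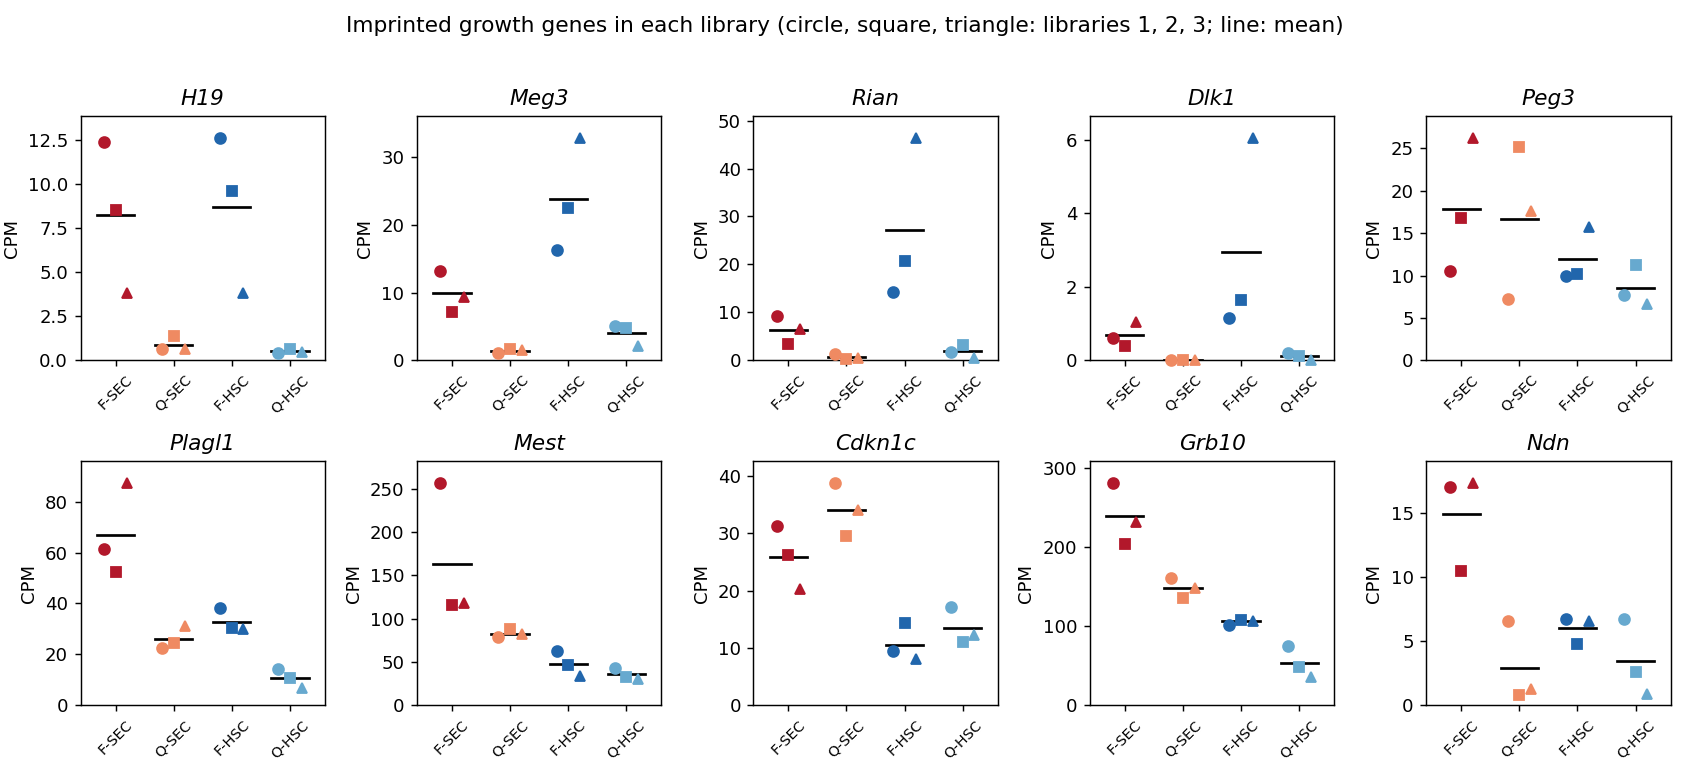
CPM of the 10 genes in each library, 1 panel per gene with its own axis from 0. Circles, squares and triangles are libraries 1, 2 and 3 of F-SEC, Q-SEC, F-HSC and Q-HSC, and the line is the group mean; H19, Meg3, Rian and Dlk1 sit near 0 in the oil groups and above every oil library of the same fraction in the CCl4 groups, while Peg3 and Cdkn1c overlap.

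Per transcript length, Mest and Grb10 were the most abundant of the 10 genes in all 4 groups and Dlk1 the least. The deposited RPKM (reads scaled to transcript length and library total) of Mest averaged 47.3 ± 23.4 in F-SEC, 21.7 ± 1.27 in Q-SEC, 14.0 ± 4.98 in F-HSC and 10.5 ± 2.51 in Q-HSC (mean ± SD, n = 3 each). Grb10 averaged 37.3 ± 6.72 RPKM in F-SEC, 20.8 ± 2.54 in Q-SEC, 16.4 ± 1.08 in F-HSC and 8.42 ± 3.64 in Q-HSC, so these 2 levels lay within their spread of each other in each group. Cdkn1c followed at 10.7 ± 2.11 RPKM in F-SEC and 12.8 ± 2.04 in Q-SEC. At the low end Dlk1 averaged 0.114 ± 0.0597 RPKM in F-SEC and 0.468 ± 0.394 in F-HSC, and Meg3, second lowest in both SEC groups, averaged 0.616 ± 0.203 RPKM in F-SEC, 0.0796 ± 0.0175 in Q-SEC, 1.46 ± 0.402 in F-HSC and 0.253 ± 0.108 in Q-HSC. Rian changed its place most: at 5.87 ± 3.22 RPKM in F-HSC its mean ranked after those of Grb10 and Mest, within its spread of Plagl1 (5.03 ± 0.972) and Cdkn1c (4.43 ± 1.54). In Q-SEC Rian averaged 0.138 ± 0.11 RPKM, below Plagl1 (3.61 ± 0.834) and Peg3 (1.82 ± 0.936).

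The first question was what CCl4 did to these genes in each fraction. As the 10 genes were chosen with earlier results of these data known, their counts beside all tested genes are a description only. In F-SEC against Q-SEC, 7 of the 10 genes were called higher and 0 lower (edgeR adjusted p under 0.05), where 11.8% of all tested genes were called higher and 12.1% lower. Without H19 and Dlk1 the count was 5 of 8, with a median log2 change of 1.17. The median log2 change of the 10 genes was 1.86 (1.22 with Dlk1 at its lower bound), against -0.05 over all tested genes. In F-HSC against Q-HSC, 6 of the 10 were called higher and 0 lower, with 14.7% of all tested genes called higher and 17.6% lower, and without H19 and Dlk1 the count was 4 of 8, with a median of 0.90. The median was 1.31 for the 10 genes and -0.02 for all. H19, Meg3, Rian, Dlk1 and Plagl1 were called in both fractions, Mest and Ndn in SEC and Grb10 in HSC, with Grb10 at an adjusted p of 0.052 in SEC. By parental copy, 3 of 5 maternally and 4 of 5 paternally expressed genes were called higher in SEC, and 4 of 5 and 2 of 5 in HSC. The 6 calls in HSC remained when any 1 library was left out, whereas in SEC the calls of H19, Meg3 and Plagl1 did and those of Rian, Dlk1, Mest and Ndn were lost without at least 1 library each. Calls over all genes moved as well, from 3455 in SEC to between 1710 and 3178 without 1 library and from 4680 in HSC to between 2612 and 4365. Among the 10 genes the SEC count was 4 without F-SEC.1 and 3 without either Q-SEC.2 or Q-SEC.3.

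**Figure D2:**
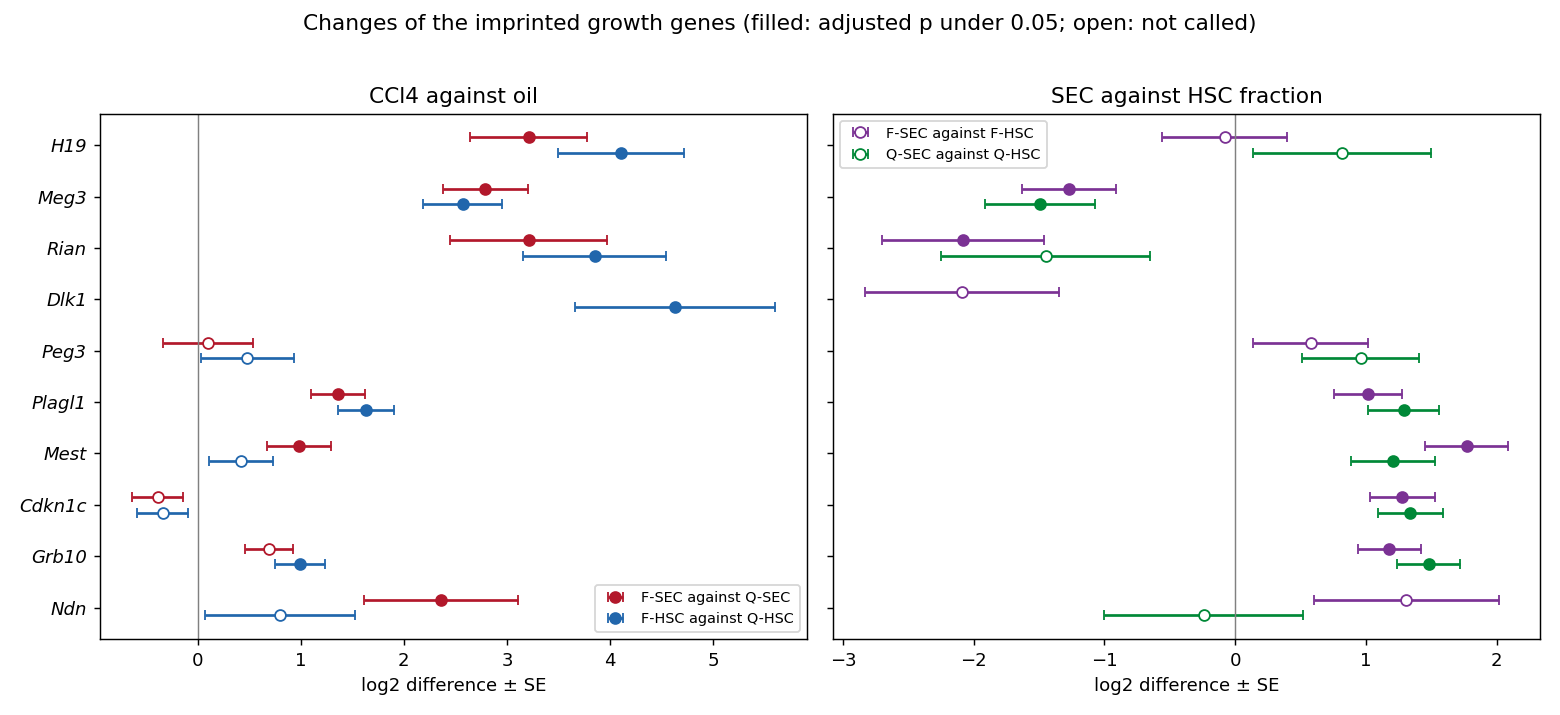
Log2 difference ± SE (edgeR) of each gene, on the left CCl4 against oil in SEC (red) and HSC (blue), on the right SEC against HSC in CCl4-treated (purple) and oil-treated mice (green). Filled points have an adjusted p under 0.05; Dlk1 is left out where Q-SEC, at 0 counts, is compared, and only Cdkn1c lies below 0 on the left.

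H19, a noncoding RNA of the fetal liver and placenta that is almost shut off in adult organs, rose in both fractions. It measured 12.4, 8.51 and 3.82 CPM in F-SEC libraries 1, 2 and 3, against 0.637, 1.36 and 0.647 CPM in Q-SEC. In HSC it measured 12.6, 9.60 and 3.84 CPM in F-HSC and 0.391, 0.652 and 0.447 CPM in Q-HSC. No CCl4 library overlapped an oil library, and in both CCl4 groups library 1 was the highest and library 3 the lowest. The myofibroblast markers summed to 17700, 9220 and 24700 CPM in F-SEC and 10200, 3990 and 10400 CPM in F-HSC libraries 1, 2 and 3. The log2 change was 3.21 ± 0.57 in SEC (edgeR adjusted p = 0.0039) and 4.11 ± 0.61 in HSC (adjusted p = 0.0015). H19 met the filter only through CCl4 libraries, so a higher level with CCl4 was built into its being tested. The oil values rest on 4 to 13 counts per library.

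Meg3, a noncoding RNA known as a growth suppressor and the maternally expressed partner of Dlk1, rose in both fractions as well. Meg3 measured 13.2, 7.06 and 9.28 CPM in F-SEC, against 1.06, 1.67 and 1.51 CPM in Q-SEC. In the HSC fraction the levels were 16.3, 22.5 and 32.8 CPM in F-HSC and 5.08, 4.78 and 2.12 CPM in Q-HSC. The groups did not overlap in either fraction, and every F-HSC library exceeded every F-SEC library. Meg3 changed by 2.79 ± 0.41 on the log2 scale in SEC (adjusted p = 0.0018) and 2.57 ± 0.38 in HSC (adjusted p = 0.0014).

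Rian, the host RNA of a large set of box C/D small nucleolar RNAs downstream of Meg3, rose in both fractions with a wide spread among the F-HSC libraries. Its CPM were 9.14, 3.39 and 6.50 in F-SEC, against 1.27, 0.209 and 0.539 in Q-SEC. In HSC they were 14.2, 20.7 and 46.3 in F-HSC and 1.76, 3.26 and 0.559 in Q-HSC. The CCl4 libraries were all above the oil libraries of their fraction, and F-HSC.3 held 3.27 times the level of F-HSC.1. Rian changed by 3.21 ± 0.76 on the log2 scale in SEC (adjusted p = 0.013) and 3.85 ± 0.69 in HSC (adjusted p = 0.0031). The SEC call was lost without Q-SEC.2 (adjusted p = 0.053) or Q-SEC.3 (adjusted p = 0.055). The levels rest on 203 counts of Rian in F-SEC, 19 in Q-SEC, 834 in F-HSC and 53 in Q-HSC.

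Dlk1 encodes a membrane protein of fetal hepatoblasts, related to Notch ligands, and it was the scarcest of the 10 genes. It measured 0.609, 0.387 and 1.03 CPM in F-SEC and 0 in all 3 Q-SEC libraries, that is 21 counts against 0. Set against the floor of 3 counts per library in Q-SEC, Dlk1 was at least 2.12-fold higher in F-SEC. In HSC it measured 1.14, 1.65 and 6.04 CPM in F-HSC and 0.195, 0.109 and 0 CPM in Q-HSC, or 88 counts against 3, a ratio of 25.1 (95% exact interval 8.31 to 124, counting error only). Dlk1 passed the test in SEC (adjusted p = 0.032) and in HSC (adjusted p = 0.0081), and F-HSC.3 was the highest library. It met the filter only through CCl4 libraries, so a rise was built into its being tested. The SEC call was lost without F-SEC.1, F-SEC.3 or any 1 of the Q-SEC libraries (adjusted p = 0.06 to 0.077).

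In the Dlk1-Dio3 cluster on chromosome 12, Meg3 and Rian thus rose in both fractions. So did Dlk1, but a rise was built into its passing of the filter. The other 4 genes of that cluster on the list of imprinted genes, Begain, Rtl1, Mirg and Dio3, had too few reads to be tested and summed to 0.619 to 0.967 CPM in F-SEC, 0.106 to 0.216 in Q-SEC, 0.99 to 2.2 in F-HSC and 0.335 to 0.489 in Q-HSC. Within F-HSC, Meg3, Rian and Dlk1 increased from library 1 to library 3. Hepatocyte markers (8 genes, such as Alb) summed to 9700, 16000 and 21700 CPM in F-HSC.1, F-HSC.2 and F-HSC.3, and the fetal liver protein Afp measured 33.5, 46.7 and 149 CPM there. Stellate cell markers (1460, 2060 and 2070 CPM), cholangiocyte markers (40.4, 121 and 150) and mesothelial markers (55.3, 64.6 and 104) had the same order. Portal fibroblast, myofibroblast and proliferation markers were also highest in F-HSC.3, while endothelial and macrophage markers were lowest there. F-SEC held 2510, 1790 and 2770 CPM of hepatocyte markers, against 1250, 3260 and 2140 CPM in Q-SEC. Of the 8 hepatocyte markers, 0 were called higher and 1 lower in SEC, where their sums overlapped between the groups, and 4 were called higher and 1 lower in HSC. The part of any of these cell types in the values of Meg3, Rian and Dlk1 was not tested.

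Plagl1, a zinc finger transcription factor that regulates a network of imprinted genes, rose in both fractions at moderate levels. It measured 61.2, 52.5 and 87.1 CPM in F-SEC, against 22.4, 24.5 and 31.2 CPM in Q-SEC. In HSC it measured 38.1, 30.4 and 30.1 CPM in F-HSC and 14.1, 10.8 and 6.93 CPM in Q-HSC. No library of a CCl4 group overlapped its oil group. Plagl1 changed by 1.36 ± 0.26 on the log2 scale in SEC (adjusted p = 0.0054) and 1.63 ± 0.27 in HSC (adjusted p = 0.0022), and both calls remained without any 1 library.

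Peg3, another zinc finger protein, active in growth and maternal behaviour, had no called change. Its levels were 10.5, 16.8 and 26.2 CPM in F-SEC and 7.22, 25.2 and 17.6 CPM in Q-SEC. In HSC they were 9.90, 10.2 and 15.7 CPM in F-HSC and 7.72, 11.3 and 6.59 CPM in Q-HSC. The groups overlapped in both fractions, with log2 changes of 0.10 ± 0.44 in SEC (adjusted p = 0.89) and 0.48 ± 0.45 in HSC (adjusted p = 0.44). The SEC value turned to -0.26 without Q-SEC.1. Reads of Peg3 could not be told from those of Peg3as, which overlaps it on the opposite strand over 865 bases with 216 counts in all, since the use of strand is not given.

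Grb10, an adaptor protein that dampens insulin and IGF receptor signalling, was one of the more abundant genes. It measured 280, 204 and 232 CPM in F-SEC, against 161, 135 and 148 CPM in Q-SEC. In HSC it measured 102, 108 and 107 CPM in F-HSC and 75.4, 48.5 and 35.2 CPM in Q-HSC. The CCl4 libraries lay above the oil libraries in both fractions. Grb10 changed by 0.99 ± 0.24 on the log2 scale in HSC (adjusted p = 0.01) and 0.69 ± 0.23 in SEC, where the adjusted p of 0.052 missed the threshold. With library number as a block, since same-numbered SEC libraries varied together, the SEC change was 0.68 ± 0.20 (adjusted p = 0.032). The SEC change passed in 8 further alternatives, among them DESeq2 (adjusted p = 0.014) and RLE scaling (0.041), and ranged from 0.56 to 0.90 over all 17 (adjusted p = 0.014 to 0.16).

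Cdkn1c encodes p57, an inhibitor of cyclin-dependent kinases that keeps cells out of division. Its levels were 31.2, 26.2 and 20.3 CPM in F-SEC and 38.7, 29.6 and 34.0 CPM in Q-SEC. In HSC they were 9.52, 14.3 and 8.13 CPM in F-HSC and 17.2, 11 and 12.2 CPM in Q-HSC. Its CCl4 groups had the lower mean in both fractions, alone among the 10 genes, but the groups overlapped and neither the log2 change of -0.39 ± 0.25 in SEC (adjusted p = 0.26) nor that of -0.34 ± 0.25 in HSC (adjusted p = 0.33) was called.

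Mest, an enzyme of the alpha/beta hydrolase family linked to fat cell size, was called in SEC only, and the test of the difference between fractions is given below. It measured 256, 116 and 118 CPM in F-SEC, against 78.4, 87.8 and 82.3 CPM in Q-SEC. In HSC it measured 62.7, 46.4 and 34.3 CPM in F-HSC and 43.6, 32.8 and 30.9 CPM in Q-HSC, with overlap. Mest changed by 0.98 ± 0.31 on the log2 scale in SEC (adjusted p = 0.043) and 0.42 ± 0.31 in HSC (adjusted p = 0.33). F-SEC.1 set much of the SEC value, which was 0.50 without it (adjusted p = 0.17), and the call was also lost without any 1 Q-SEC library (adjusted p = 0.093 to 0.12). The last 913 bases of Mest overlap Copg2, on the opposite strand, so its reads are uncertain there.

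Ndn encodes necdin, a growth suppressor of the MAGE family. It measured 17, 10.5 and 17.3 CPM in F-SEC, against 6.59, 0.836 and 1.29 CPM in Q-SEC. In HSC it measured 6.70, 4.75 and 6.59 CPM in F-HSC and 6.74, 2.61 and 0.894 CPM in Q-HSC. The groups were apart in SEC and overlapped in HSC, where Q-HSC.1 was as high as any F-HSC library. Ndn changed by 2.36 ± 0.75 on the log2 scale in SEC (adjusted p = 0.043) and 0.80 ± 0.73 in HSC (adjusted p = 0.43). Ndn in library 1 was 6.18 times the mean of libraries 2 and 3 in Q-SEC and 3.85 times in Q-HSC, and the stellate marker sum 13.6 and 4.70 times. The myofibroblast marker sum was highest in library 1 as well, at 375, 51.3 and 45.3 CPM in Q-SEC and 616, 175 and 109 CPM in Q-HSC. The part of either cell type in the values of Ndn was not tested. With only the libraries numbered 2 and 3, Ndn was called in HSC too (log2 change 1.73, adjusted p = 0.028), and without Q-SEC.1 the SEC change was 3.80 (adjusted p = 0.0064). The SEC call was lost without any 1 of the other 5 SEC libraries (adjusted p = 0.052 to 0.14). A cDNA clone on the opposite strand overlaps 1002 bases of Ndn and held 564 counts over the 12 libraries, so its reads are uncertain too.

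**Figure D3:**
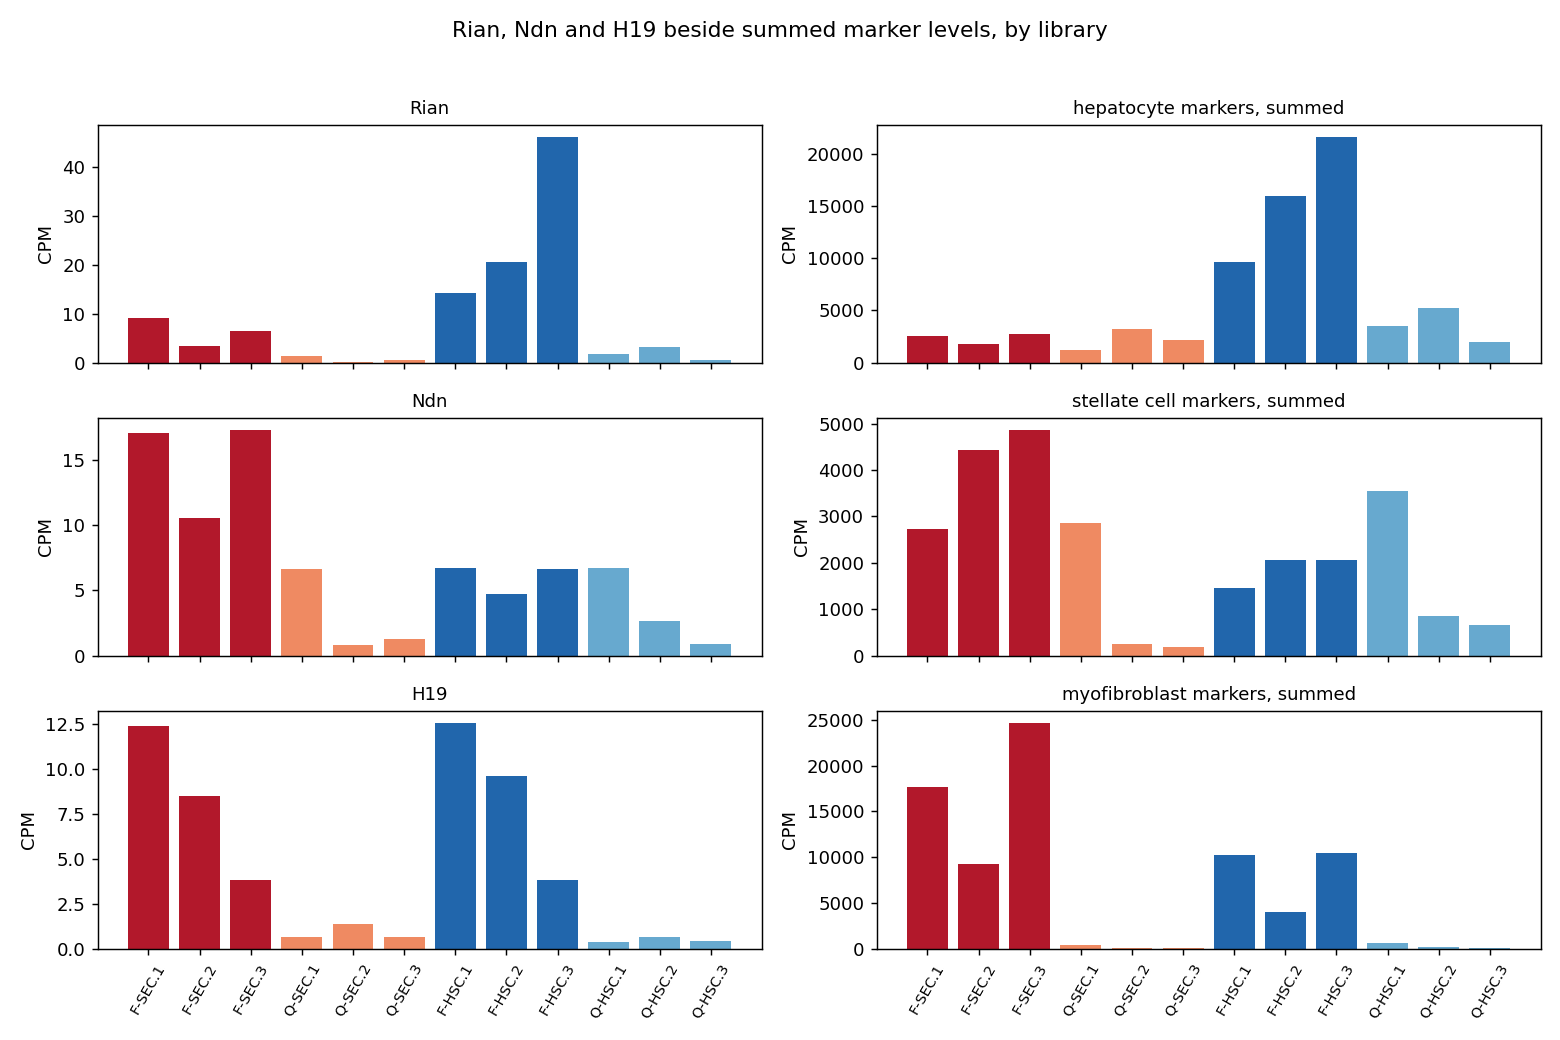
CPM by library of Rian, Ndn and H19 (left) beside summed CPM of hepatocyte, stellate cell and myofibroblast markers (right), in the order F-SEC, Q-SEC, F-HSC and Q-HSC, bars from 0. Ndn, the stellate markers and the myofibroblast markers are all high in Q-SEC.1 and Q-HSC.1 among the oil libraries. Rian and the hepatocyte markers are both highest in F-HSC.3. Within F-HSC the cholangiocyte, mesothelial and portal fibroblast markers, not drawn, are also highest in F-HSC.3. So are, by little, the stellate cell and myofibroblast markers and the proliferation markers, the last not drawn.

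Whether CCl4 changed a gene differently in SEC than in HSC was tested directly, and 0 of the 10 genes were called in either direction by edgeR, 0 of them also at an unadjusted p under 0.05. Of all tested genes, 0.566% had a higher and 0.235% a lower change in SEC, with 2558 genes at an unadjusted p under 0.05; these 116 calls became 3 to 743 without 1 library. The differences (SEC change minus HSC change, log2) ran from -0.90 ± 0.83 for H19 (adjusted p = 0.61) to 1.56 ± 1.03 for Ndn (adjusted p = 0.46). Mest differed by 0.56 ± 0.44 (adjusted p = 0.54) and Grb10 by -0.30 ± 0.33 (adjusted p = 0.68). The calls of Mest and Ndn in 1 fraction and of Grb10 in the other were thus not shown to differ between fractions, and with these errors a difference of several-fold could have been missed for Rian (-0.63 ± 1.05), Dlk1 (1.16 ± 1.34) and Ndn.

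The next question was which fraction held more of each gene. Grb10, Mest, Plagl1 and Cdkn1c were higher in SEC than in HSC in both treatments, and Meg3 was lower. In F-SEC against F-HSC, 4 of the 10 genes were called higher and 2 lower, with 12.6% and 12.8% of all tested genes called. In Q-SEC against Q-HSC, 4 were called higher and 1 lower, with 15.5% and 14.3% of all tested genes. Grb10 differed by 1.18 ± 0.24 on the log2 scale with CCl4 (adjusted p = 0.005) and by 1.48 ± 0.24 with oil (adjusted p = 0.0012). Cdkn1c differed by 1.28 ± 0.25 (adjusted p = 0.0047) and 1.34 ± 0.25 (adjusted p = 0.0027), its SEC libraries all above its HSC libraries. Mest differed by 1.77 ± 0.32 (adjusted p = 0.0034) and 1.21 ± 0.32 (adjusted p = 0.015), and Plagl1 by 1.02 ± 0.26 (adjusted p = 0.015) and 1.29 ± 0.27 (adjusted p = 0.0045), with CCl4 and with oil in that order.

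Beside these differences, 9 of 9 endothelial markers were called higher in SEC in both treatments, 7 of 7 macrophage markers were lower with oil and 5 of 7 with CCl4, and 7 of 8 hepatocyte markers were lower with CCl4. Stellate cell markers did not set the HSC fraction apart. With CCl4, 1 of 10 was called higher and 0 lower in SEC (median log2 difference 1.28), and with oil 0 and 1 (median -0.73). Of the 7 myofibroblast markers 0 were called in either treatment, with medians of 1.01 with CCl4 and -0.4 with oil. The part of these cells in the differences was not tested.

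The chromosome 12 genes ran the other way. Meg3 was lower in SEC, by a log2 difference of -1.27 ± 0.36 with CCl4 (adjusted p = 0.025) and -1.49 ± 0.42 with oil (adjusted p = 0.02). Rian was lower with CCl4 (-2.08 ± 0.62, adjusted p = 0.031) and not called with oil (-1.45 ± 0.80, adjusted p = 0.20). Dlk1 differed by -2.09 ± 0.74 with CCl4 (adjusted p = 0.069), passing without F-HSC.1 (-2.48, adjusted p = 0.036), and with oil both fractions were at or under the floor. H19 was nearly level with CCl4, at -0.08 ± 0.48 (adjusted p = 0.92), a value of 0.29 without F-HSC.1, and not called with oil (0.82 ± 0.68, adjusted p = 0.40). Peg3 was not called either, at 0.58 ± 0.44 with CCl4 (adjusted p = 0.37) and 0.96 ± 0.45 with oil (adjusted p = 0.13, and 0.03 without Q-SEC.1). Ndn was at 1.31 ± 0.71 with CCl4 (adjusted p = 0.20) and -0.24 ± 0.76 with oil (adjusted p = 0.84). The calls of Meg3 were lost without F-SEC.2, F-SEC.3, F-HSC.2 or F-HSC.3 with CCl4 (adjusted p = 0.055 to 0.10) and without Q-SEC.1, Q-SEC.3, Q-HSC.1 or Q-HSC.2 with oil (0.053 to 0.07), and those of Rian without F-SEC.2, F-SEC.3 or F-HSC.3 (0.094 to 0.14). Plagl1 lost its CCl4 call without F-SEC.3 or F-HSC.3 (0.062 and 0.056) and Mest its oil call without Q-HSC.2 or Q-HSC.3 (0.064 and 0.07).

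The other imprinted genes were called about as often as genes in general. Of 58 on the list, 57 were in the table and 40 were tested, 5 of them called higher and 6 lower in F-SEC against Q-SEC and 7 higher and 5 lower in F-HSC against Q-HSC, with median log2 changes of 0.11 and 0.12. Over all tested genes 11.8% were called higher and 12.1% lower in SEC and 14.7% higher and 17.6% lower in HSC, with medians of -0.05 and -0.02. Kcnq1ot1, the paternally expressed noncoding RNA that silences the domain of Cdkn1c, fell in both fractions, to 30.0, 30.6 and 26.8 CPM in F-SEC, against 62.9, 54.7 and 54.0 CPM in Q-SEC, and to 22.8, 29.2 and 30.2 CPM in F-HSC, against 84.4, 74.5 and 92.2 CPM in Q-HSC. Its log2 change was -0.97 ± 0.14 in SEC (adjusted p = 0.0018) and -1.61 ± 0.15 in HSC (adjusted p = 0.00021). Kcnq1ot1 lies wholly inside Kcnq1 on the opposite strand, and as the use of strand is not given, its reads are uncertain. Kcnq1 averaged 40.2 CPM in F-SEC and 67.2 in Q-SEC, and 15.8 CPM in F-HSC and 25.8 in Q-HSC. Igf2, the fetal growth factor that shares the H19 locus, measured 4.70, 2.42 and 2.68 CPM in F-SEC, 3.08, 1.88 and 2.05 CPM in Q-SEC, 4.57, 5.12 and 2.53 CPM in F-HSC and 2.93, 1.20 and 0.670 CPM in Q-HSC. Neither of its log2 changes was called, 0.49 ± 0.50 in SEC (adjusted p = 0.50) and 1.33 ± 0.51 in HSC (adjusted p = 0.065). The HSC change passed without Q-HSC.1 (2.16, adjusted p = 0.015), with DESeq2 (adjusted p = 0.035) and with limma-voom (0.044). It also passed with library number as a block, with clone entries and with only libraries 2 and 3. Over its 16 alternatives the adjusted p ran from 0.012 to 0.18.

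Igf2r, which clears IGF2 from the cell surface, had a called difference between the fractions. It measured 58.7, 75.7 and 88.6 CPM in F-SEC, against 51.0, 57.6 and 54.7 CPM in Q-SEC. In HSC it reached 347, 198 and 304 CPM in F-HSC, against 58.8, 61.9 and 62.8 CPM in Q-HSC. The log2 change was 0.45 ± 0.21 in SEC (adjusted p = 0.13) and 2.21 ± 0.21 in HSC (adjusted p = 0.00029), with a called difference of -1.76 ± 0.29 (adjusted p = 0.032, at most 0.092 without 1 library, where Q-SEC.3 was left out). Pon3, an imprinted lactonase gene of the Peg10 cluster, likewise rose in HSC (1.1 ± 0.15, adjusted p = 0.0012) and not in SEC (-0.28 ± 0.15, adjusted p = 0.21), a difference of -1.38 ± 0.22 (adjusted p = 0.029, at most 0.076 without 1 library). Ppp1r9a of the same cluster fell by 2.0 ± 0.32 in HSC on the log2 scale (adjusted p = 0.0019), beside a SEC change of -0.64 ± 0.31 (adjusted p = 0.15). The 5 genes called higher in SEC, named after their values were seen, were Nnat, Osbpl5, Peg10 and the pair Snrpn and Snurf, whose values are equal. Of the 6 SEC fits without 1 library, 5 lost the call of Peg10, 3 each those of Osbpl5 and Snrpn, and 1 that of Nnat (adjusted p up to 0.10). The calls of Kcnq1ot1, Igf2r, Pon3 and Ppp1r9a against oil remained without any 1 library.

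**Figure D4:**
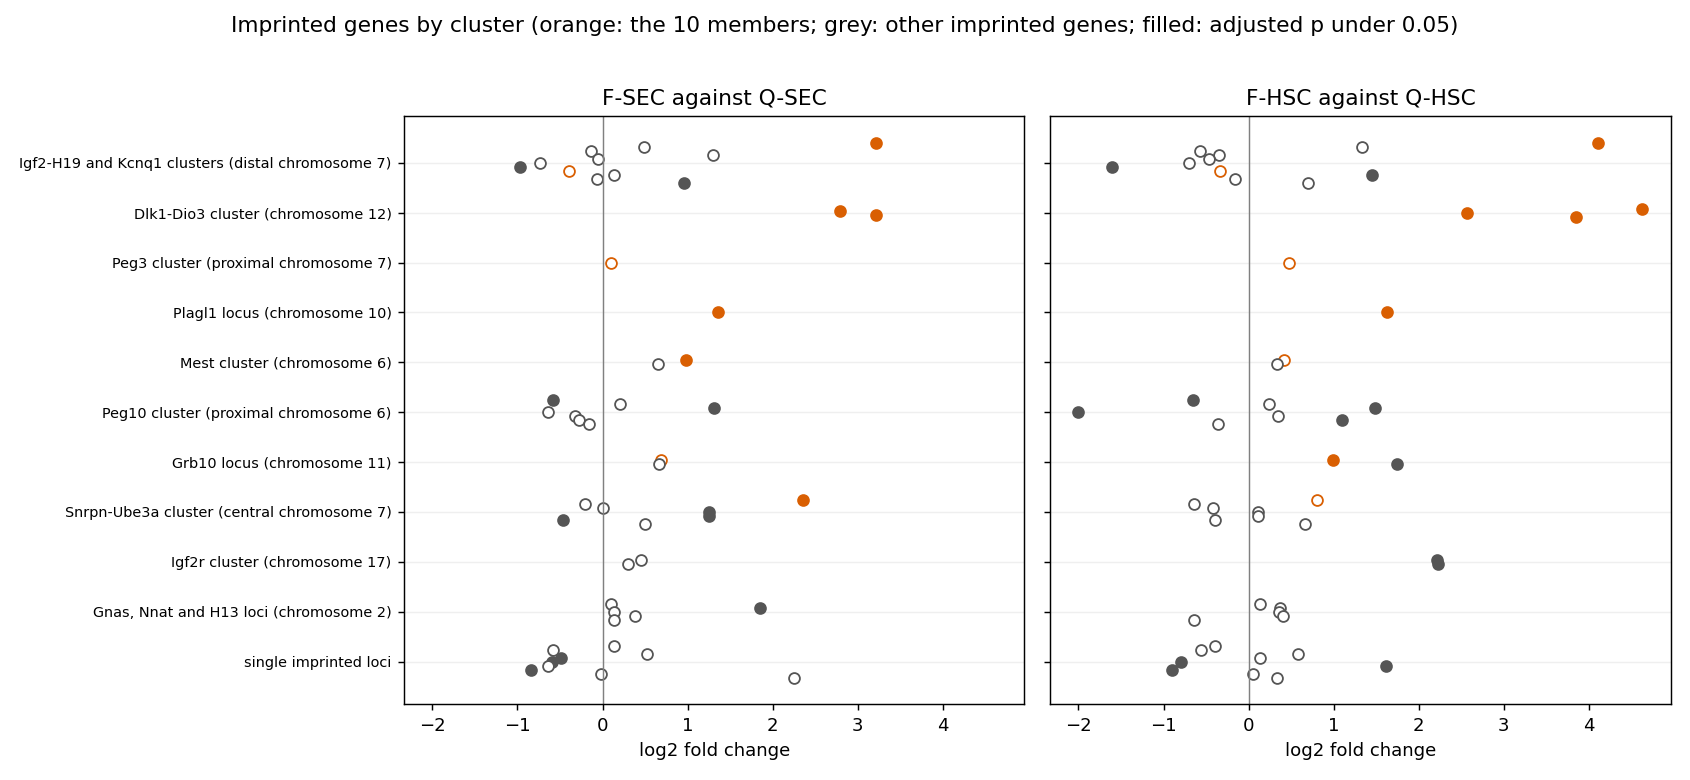
Log2 fold change with CCl4 in SEC (left) and HSC (right) for every tested imprinted gene, by cluster. Orange points are the 10 genes and grey points the other 40, filled where the adjusted p is under 0.05. Dlk1 in SEC, with 0 counts in Q-SEC, is left out. The chromosome 12 row holds called rises only, that of Dlk1 in HSC being built into its passing of the filter. The Kcnq1, Peg10, Snrpn-Ube3a and single-locus rows hold grey points on both sides of 0.

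Lists of genes that work with the 10 were counted as well, to be read beside the 11.8% called higher and 12.1% lower among all tested genes in SEC and the 14.7% and 17.6% in HSC. With so few genes in each list the counts are a description only. For the pathway that Grb10 restrains, the list held 9 insulin and IGF genes, receptors as well as others such as the adaptors Irs1 and Irs2. Of these 9, 3 were called higher and 1 lower in SEC, and 4 and 1 in HSC, Igf2r among the 4. The adaptor Irs2 rose by 2.84 ± 0.53 in SEC (adjusted p = 0.0052) and 2.39 ± 0.52 in HSC (adjusted p = 0.007), Irs1 by 1.86 ± 0.60 in SEC (adjusted p = 0.045, lost without any SEC library but F-SEC.1) and 2.97 ± 0.61 in HSC (adjusted p = 0.0055). The insulin receptor Insr fell in SEC (-1.21 ± 0.24, adjusted p = 0.0061). Of the 6 CDK inhibitor genes, relatives of Cdkn1c or of the same function, 2 were called higher in SEC and 3 in HSC, with 0 and 1 lower. Cdkn1a, encoding p21, changed by 1.24 ± 0.26 in HSC (adjusted p = 0.0058) and 0.29 ± 0.25 in SEC (adjusted p = 0.43), and Cdkn1b, encoding p27, by -0.52 ± 0.13 in HSC (adjusted p = 0.012). Cdkn2a, encoding p16, rose by 1.40 ± 0.34 in SEC (adjusted p = 0.014) and 1.17 ± 0.33 in HSC (adjusted p = 0.02), and Cdkn2c, encoding p18, by 1.41 ± 0.39 in SEC (adjusted p = 0.025). The calls of Irs2, Insr and Cdkn1a remained without any 1 library, and those of Cdkn1b, Cdkn2a and Cdkn2c were each lost without 1 of several libraries, Q-SEC.3 or Q-HSC.3 among them (adjusted p = 0.059 to 0.095).

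Among the 4 Notch receptors, the family to which Dlk1 is related through its ligands, 1 was called higher and 2 lower in each fraction. Notch3, a receptor of mural cells, rose by 4.91 ± 0.67 in SEC (adjusted p = 0.0014) and 2.16 ± 0.59 in HSC (adjusted p = 0.019), while Notch4 changed by -0.98 ± 0.27 and -1.33 ± 0.28 in SEC and HSC and Notch1 by -0.82 ± 0.23 and -0.88 ± 0.23, all called. In SEC the calls of Notch4 and Notch1 were each lost in 4 of the 6 fits without 1 library (adjusted p up to 0.12 and 0.11). In HSC the call of Notch3 was lost in 2 of 6 (up to 0.062) and that of Notch1 in 3 of 6 (up to 0.061). Of the 8 fetal liver genes tested, 2 were called higher in SEC and 3 in HSC, with 0 lower. Gpc3, a heparan sulphate proteoglycan of fetal liver, rose by 3.62 ± 0.42 in SEC (adjusted p = 0.00061) and 2.57 ± 0.38 in HSC (adjusted p = 0.0015), and Afp by 3.38 ± 1.11 (adjusted p = 0.047) and 6.68 ± 0.77 (adjusted p = 0.00069). Igf2bp2, an RNA-binding protein, rose in HSC (1.59 ± 0.45, adjusted p = 0.022, and 0.82 with adjusted p = 0.052 without F-HSC.1). The SEC call of Afp rests on under 3 CPM and was lost without F-SEC.2 or F-SEC.3 or any 1 Q-SEC library. A list of imprint regulators mixed keepers of imprints such as Zfp445 with methylcytosine oxidases such as Tet3, so its counts have no common direction. Of its 12 genes tested, 1 was called higher and 2 lower in SEC, and 0 and 5 in HSC. The methylcytosine oxidase Tet3 fell in SEC (-0.72 ± 0.14, adjusted p = 0.0052) and HSC (-0.92 ± 0.14, adjusted p = 0.0015), and so did Zfp445, a zinc finger protein that keeps imprints (-1.09 ± 0.23, adjusted p = 0.0078, and -0.95 ± 0.23, adjusted p = 0.011), and these calls remained without any 1 library. Tet2 was called lower in HSC (-1.01 ± 0.31, adjusted p = 0.03) and Trim28, the corepressor that ZFP57 recruits, higher in SEC (0.44 ± 0.14, adjusted p = 0.038), both lost without 1 of 4 libraries (adjusted p = 0.075 to 0.13).

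The 10 genes were also compared by their pattern over the 12 libraries, as the root mean square (RMS) difference of log2 CPM profiles centred on each gene's own mean, a description in which all libraries and depths are shared. Closest among themselves were Plagl1 and Grb10 (0.40), Mest and Grb10 (0.40) and Meg3 and Dlk1 (0.50), and the farthest apart were Rian and Cdkn1c (2.51). Among genes that averaged 10 CPM or more, the nearest to H19 was Ctsk (0.61), a collagen-degrading protease, the nearest to Meg3 was Gpc3 (0.43) and the nearest to Rian was Slc1a4 (0.65), an amino acid transporter. The nearest to Plagl1 was Adamts9 (0.24), to Grb10 Ppic (0.18), to Cdkn1c Arl15 (0.15), to Mest Kctd17 (0.29), to Peg3 Rab27b (0.32), to Dlk1 Arhgef19 (0.43) and to Ndn Syt9 (0.28). A gene with little variation has small differences to begin with: the SD-like spread of the profile was 0.63 for Peg3 and 2.03 for Rian.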

How the data were processed

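Bulk RNA of SEC and HSC fractions was sequenced in 12 libraries. Per the labels, the authors demultiplexed reads with bcl2fastq, and TopHat2 2.0.13 was the aligner, on mm10. The deposited counts are their read counts per annotated entry, and the counting tool and use of strand are not given in the sources used here. The authors' second set of columns, RPKM (scaled to length and library total), served only to compare levels between genes and, as an alternative, the order of groups. Of 56826 lines, 1 without values was not analysed here, and 33353 cDNA clone entries (16.3 to 24.9% of counts), which can repeat reads of genes, were set aside. No per-sample column was left without a sample (0). Libraries without a number in their title were taken as number 1. Libraries of a group differed beyond sampling noise (chi-square per degree of freedom at least 19.9).

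Counts were fitted in R 4.3.3 with edgeR 4.0.16 (filterByExpr, TMM factors 0.899 to 1.09, robust quasi-likelihood, 1 coefficient per group, 8 residual degrees of freedom, common biological CV 0.28). Calls are Benjamini-Hochberg adjusted p-values under 0.05, the adjustment covering 14489 genes. The test was tried first on simulated data. Log2 CPM profiles used a prior count of 2, and intervals and floors cover counting error only. The 10 genes and the lists were chosen with earlier results of these data known. All 10 are named, and of each other list at most 4 called genes with the lowest adjusted p; the marker lists are given by counts and sums. Exceptions named after their values were seen are Igf2, Peg10, Nnat, Osbpl5, Snrpn and Snurf, the genes of a cluster that were not tested, and the overlapping entries.

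The methods state no test for the bulk counts. Alternatives were DESeq2 1.42.0, limma-voom (limma 3.58.1), RLE scaling, any gene with at least 1 read, a mean of at least 10 CPM, a threshold of 0.01, library number as a block, each library left out, only the libraries compared, only libraries numbered 2 and 3, clone entries included, and Rn45s and Lars2 left out. Library numbers were taken to pair libraries where all 3 same-numbered correlations of deviations from group means exceeded 0.1. This held between F-SEC and Q-SEC (0.31, 0.25 and 0.16) and between F-SEC and F-HSC (0.47, 0.45 and 0.43). It also held between Q-SEC and F-HSC (0.32, 0.14 and 0.22), groups that share neither treatment nor fraction. It did not hold between F-HSC and Q-HSC (-0.09, 0.24 and -0.28) or between Q-SEC and Q-HSC (0.53, 0.50 and -0.01). Sequences are from RefSeq tables (GRCm38.p6), and the build of the files, mm10, is GRCm38.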

Additional observations from a re-analysis of the deposited data

Results flagged for a closer look

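Igf2r was singled out because its CCl4 change differed between the fractions by a direct test, -1.76 ± 0.29 on the log2 scale for SEC minus HSC (edgeR adjusted p = 0.032), and Pon3 likewise with -1.38 ± 0.22 (adjusted p = 0.029). Both kept their direction in all 22 alternatives and lost the call in 8, with values of -1.93 to -1.46 for Igf2r (adjusted p up to 0.092) and -1.47 to -1.27 for Pon3 (up to 0.076). None of the 10 genes differed in this way.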

How the results depend on the processing

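Over the 10 genes and 5 tests, leaving out 1 library at a time kept direction and call in 311 values, lost the call in 31, gained one in 2 and turned the sign of 16, none of them called. The other alternatives gave 477, 19, 12 and 4, and the order of the 4 group means was equal in CPM and RPKM for all 10 genes. Counts of the 10 genes called higher or lower ranged, without 1 library, from 3 to 6 higher in F-SEC against Q-SEC, 6 to 6 higher in F-HSC against Q-HSC, 3 to 4 higher and 0 to 3 lower in F-SEC against F-HSC, and 3 to 5 higher and 0 to 1 lower in Q-SEC against Q-HSC. With a mean of at least 10 CPM they fell to 3 higher in SEC and 2 in HSC, and 0 lower in either comparison of fractions, since fewer genes were tested. At an adjusted p under 0.01 they were 3 higher in SEC and 0 lower in either comparison of fractions. With only libraries 2 and 3, and with limma-voom, 0 were lower in Q-SEC against Q-HSC. The sign turned for Cdkn1c in HSC (0.02 with libraries 2 and 3), for the difference between fractions of Meg3 (-0.64) and Dlk1 (-0.05) with those libraries and of Dlk1 with limma-voom (-0.38), and for Cdkn1b in SEC with clone entries (0.01); the cause was not tested. Leaving out 1 library gave -0.26 to 0.52 for Peg3 in SEC, -0.50 to 0.29 for H19 in F-SEC against F-HSC and -1.68 to 0.70 for Ndn in Q-SEC against Q-HSC. For the differences it gave -0.05 to 0.56 for Meg3, -1.26 to 0.20 for Rian, -0.74 to 0.04 for Peg3 and -0.25 to 0.25 for Cdkn1c.

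With the replicate block, Grb10 in SEC was the only call among the 10 genes to change. Of the other named genes in SEC, Irs1 lost its call (1.80, adjusted p = 0.052) and Tet2 (-0.70, 0.014) and Ppp1r9a (-0.63, 0.045) gained one, and in HSC, where the numbers do not pair the libraries, Insr (-0.52, 0.027) and Igf2 (1.45, 0.016) passed. Over all genes, the difference between fractions was called for 116, and for 183 with the block, 25 with limma-voom, 911 with DESeq2, 1712 with libraries 2 and 3 and 3 to 743 without 1 library. An adjusted p under 0.01 left 1262 of 3455 calls in SEC and 1985 of 4680 in HSC, and clone entries gave 5377 and 10505.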
